A study of Mus musculus with 17 samples.

Results

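MHC class II presentation genes encode the proteins with which dendritic cells load peptides of engulfed material and show them to CD4+ T cells. The genes described here are 10 of the 31091 gene identifiers in the deposited count table: Ciita, H2-Aa, H2-Ab1, H2-Eb1, Cd74, H2-DMa, H2-DMb1, H2-DMb2, H2-Oa and H2-Ob. They were chosen by name, and all 10 passed the filter on low counts in every fit. Their levels were followed in type 1 and type 2 conventional dendritic cells (cDC1s and cDC2s) from mouse spleen, kept for 6 h in the presence of medium from WT, BimS or RIPK3 TC-1 cells. TC-1 is a lung epithelial tumor line of C57BL/6 origin. TC-1-iBimS cells die by apoptosis and TC-1-iRIPK3 cells by necroptosis when cumate switches on their transgene, and both are clonal lines grown from single sorted cells. All 3 tumor lines, WT included, had received cumate for 24 h before the medium was taken. Each of the 6 groups had 3 samples, except cDC2s with RIPK3 medium (2), which makes 17.

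The cells came from pooled spleens of female C57BL/6JRj mice, bought at 8 weeks of age, that carried B16 tumors secreting FLT3 ligand, which expands cDCs. CD11c+ cells were enriched on magnetic beads, cultured with the medium, and sorted as cDC1s (XCR1+ CD8α+ SIRPα-) or cDC2s (SIRPα+ CD11b+ XCR1-) within a gate of MHC class II+ CD11c+ cells. MHC class II protein at the surface was thus part of the sort, and the sorted cells were not limited to those that had taken up debris. Nothing in the sources used here says that the replicates came from separate cultures or animals, so the p-values measure the spread between these samples, which may be technical. Samples held 16095159 to 21645289 counts on genes, of which the 10 genes took 1.95 to 3.60%. Markers of cDC1s (8 genes) summed to 1397 to 1725 CPM in cDC1s and 98.8 to 132 CPM in cDC2s, and markers of cDC2s (7 genes) to 2.53 to 4.03 CPM in cDC1s and 287 to 374 CPM in cDC2s. B cells also carry MHC class II. Of 10 B cell markers, which summed to 14.4 to 26.0 CPM in cDC1s and 29.1 to 50.2 CPM in cDC2s, Ighm made up nearly all. In every sample, 9 of the 10 stayed below 1 CPM in cDC1s and 8 in cDC2s, Cd79a and Ms4a1 among them. Cd22 was above that in cDC2s. It was at 1.28 to 1.78 CPM with WT, 1.22 to 2.08 CPM with BimS and 2.695 to 2.78 CPM with RIPK3 medium. CPM, the sequencing unit used here, are counts scaled to the library size after TMM normalization over the 17 samples. In sorted bulk samples, fewer expressing cells and less RNA per cell cannot be told apart.

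Class II molecules are assembled in the endoplasmic reticulum from an alpha and a beta chain around the invariant chain (Cd74), which blocks the groove until proteases of the endosome degrade it. H2-M, made of H2-DMa with H2-DMb1 or H2-DMb2, then removes the last fragment of the invariant chain and lets peptides exchange, and H2-O, made of H2-Oa and H2-Ob, restrains H2-M. All of these genes are switched on by CIITA, a transactivator that does not bind DNA itself but is held by RFX, CREB and NF-Y factors on the X and Y boxes of their promoters. In mice of the H-2b haplotype such as C57BL/6, the I-A molecule (H2-Aa with H2-Ab1) is made, whereas the alpha chain of I-E is not transcribed, so that H2-Eb1 lacks its usual partner.

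The promoters are shown first, because these genes were measured as a group that is known to share promoter boxes. RefSeq promoter windows (GRCm38.p6, 250 bases before to 50 bases after the start of the gene) were matched by symbol for 7 of the 10 genes, with 8 windows in all, since H2-DMa has a pair of them. H2-Ab1, Cd74 and Ciita had no entry. Both strands were searched for an X box core, CCNAGNAAC, and a Y box core, ATTGG. The stretches below are written 5′ to 3′ on the strand of the gene, and capitals mark the X box core, the Y box core and AACNNNTGA, a run chosen after the windows had been seen, which can overlap the X box core.
H2-Oa, chr17:34092286-34092350 (plus strand): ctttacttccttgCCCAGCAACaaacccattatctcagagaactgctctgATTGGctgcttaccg
H2-Ob, chr17:34238798-34238862 (plus strand): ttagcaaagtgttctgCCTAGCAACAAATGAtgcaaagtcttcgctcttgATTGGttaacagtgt
H2-Aa, chr17:34287857-34287921 (minus strand): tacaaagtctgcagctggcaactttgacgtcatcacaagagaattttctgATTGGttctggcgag
H2-Eb1, chr17:34305758-34305822 (plus strand): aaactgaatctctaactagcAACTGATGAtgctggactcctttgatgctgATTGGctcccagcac

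H2-DMb1 and H2-DMb2 are given over the 200 bases before the start, because their levels differed in opposite directions between the cell types.
H2-DMb1, chr17:34152991-34153190 (plus strand): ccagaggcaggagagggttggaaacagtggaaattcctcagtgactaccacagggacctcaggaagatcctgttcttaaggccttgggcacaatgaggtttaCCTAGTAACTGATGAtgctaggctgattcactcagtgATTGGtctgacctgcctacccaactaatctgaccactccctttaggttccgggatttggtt
H2-DMb2, chr17:34145049-34145248 (plus strand): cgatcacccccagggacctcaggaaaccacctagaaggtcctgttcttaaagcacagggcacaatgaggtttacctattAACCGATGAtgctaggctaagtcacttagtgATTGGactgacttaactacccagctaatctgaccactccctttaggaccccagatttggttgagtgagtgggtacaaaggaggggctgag

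An X box core followed on the same strand after 10 to 35 bases by a Y box core was present in H2-Oa, H2-Ob and H2-DMb1, and in 0.186% of the 32851 promoter windows of the table. The X box core alone occurred in 5.27% and the Y box core alone in 37.4% of those windows. H2-Aa, H2-Eb1 and H2-DMb2 held the Y box core without the exact X box core. Distances are counted from the start of the gene to the first base of a match. The Y box core began 43 bases before the start in H2-Oa, 57 in H2-Ob, 48 in H2-Aa, 59 in H2-Eb1, 61 in H2-DMb1 and 90 in H2-DMb2. On the opposite strand, H2-Eb1 held a further Y box core 35 bases before the start and H2-DMb1 a further X box core 2 bases after it. AACNNNTGA was found in H2-Ob, H2-Eb1, H2-DMb1 and H2-DMb2, and in 11.9% of all windows. The windows of H2-DMb1 and H2-DMb2 were identical at 84.2% of aligned bases. The H2-DMa windows held no X box core, and 1 of them a Y box core 198 bases before the start. Of motifs bound by interferon-activated factors, a GAS motif (TTCNNNGAA) was present in 1 of the 8 windows, that of H2-DMb2, and in 8.30% of all windows. An ISRE core was present in 0 of the 8 and in 3.44% of all windows. A match of letters is a description and not a binding site.

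Of the members, 8 lie in the MHC region of chromosome 17 between H2-Oa (chr17:34311314-34314328) and H2-Eb1 (chr17:34504236-34535648), with H2-Ab1 (chr17:34476663-34488393) between H2-Ob and H2-Aa. Cd74 is at chr18:60936899-60945731 and Ciita at chr16:10297923-10347694, all in GRCm39, the build of the counts. Some reads of these genes cannot be assigned with certainty. Of all stretches of 54 bases, the length of a read, 25.5% of the canonical transcript of H2-DMb1 also occur in H2-DMb2 and 24.5% of that of H2-DMb2 in H2-DMb1. The 2 transcripts were identical at 94.1% of aligned bases. With any other gene, 30.3% of the H2-DMb1 stretches (2 genes) and 29.6% of the H2-DMb2 stretches (478 genes) are shared. Summing the pair thus does not cover all of them. H2-Eb1 shares 4.74% of its stretches with Gm20513 and Ciita 2.21% with Dexi. H2-Oa shares 22.9% of its stretches with the antisense RNA BC051537, which had 0 to 8 counts in any sample. For H2-Aa, H2-Ab1, H2-DMa, H2-Ob and Cd74 no such stretch of the canonical transcript occurred in a transcript of another gene. H2-DMa also overlaps exons of Brd2 on the opposite strand over 510 bases (11.8% of its exonic bases), and Brd2 had 8993 to 12057 counts. Whether the counting used the strand of the reads is not given in the sources used here.

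The classical chains and the invariant chain were among the most abundant messages of these cells. With WT medium, Cd74 ranked 1 among all genes by mean CPM in cDC1s and 2 in cDC2s, and H2-Ab1 ranked 4 and 5. Per kilobase of canonical transcript, levels in cDC1s with WT medium ran from Cd74 (6766 to 7143 CPM per kb) through H2-Ab1 (5516 to 6207), H2-Aa (5452 to 5853) and H2-Eb1 (4285 to 4565). The accessory genes were far lower. H2-DMa was at 76.9 to 79.5 CPM per kb, H2-DMb1 and Ciita both at 38.8 to 44.9, H2-Ob at 32.3 to 36.1, H2-Oa at 18.9 to 23.6 and H2-DMb2 at 11.8 to 13.6. In that order the neighbours H2-Ab1 and H2-Aa, and H2-DMb1 and Ciita, had overlapping samples, and the others did not. In cDC2s with WT medium the same 4 genes led, with overlapping samples for Cd74 (4956 to 6640), H2-Ab1 (3820 to 5583) and H2-Aa (3585 to 5202), followed by H2-Eb1 (2426 to 3451). The lower part of the order differed. Ciita (20.3 to 24.1 CPM per kb) and H2-DMb1 (11.9 to 17.6) stood below H2-DMa (39.8 to 57.7) and H2-Ob (38.3 to 45.7), and H2-DMb2 (19.9 to 30.2), H2-Oa (18.9 to 33.7) and Ciita overlapped.

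**Figure D1:**
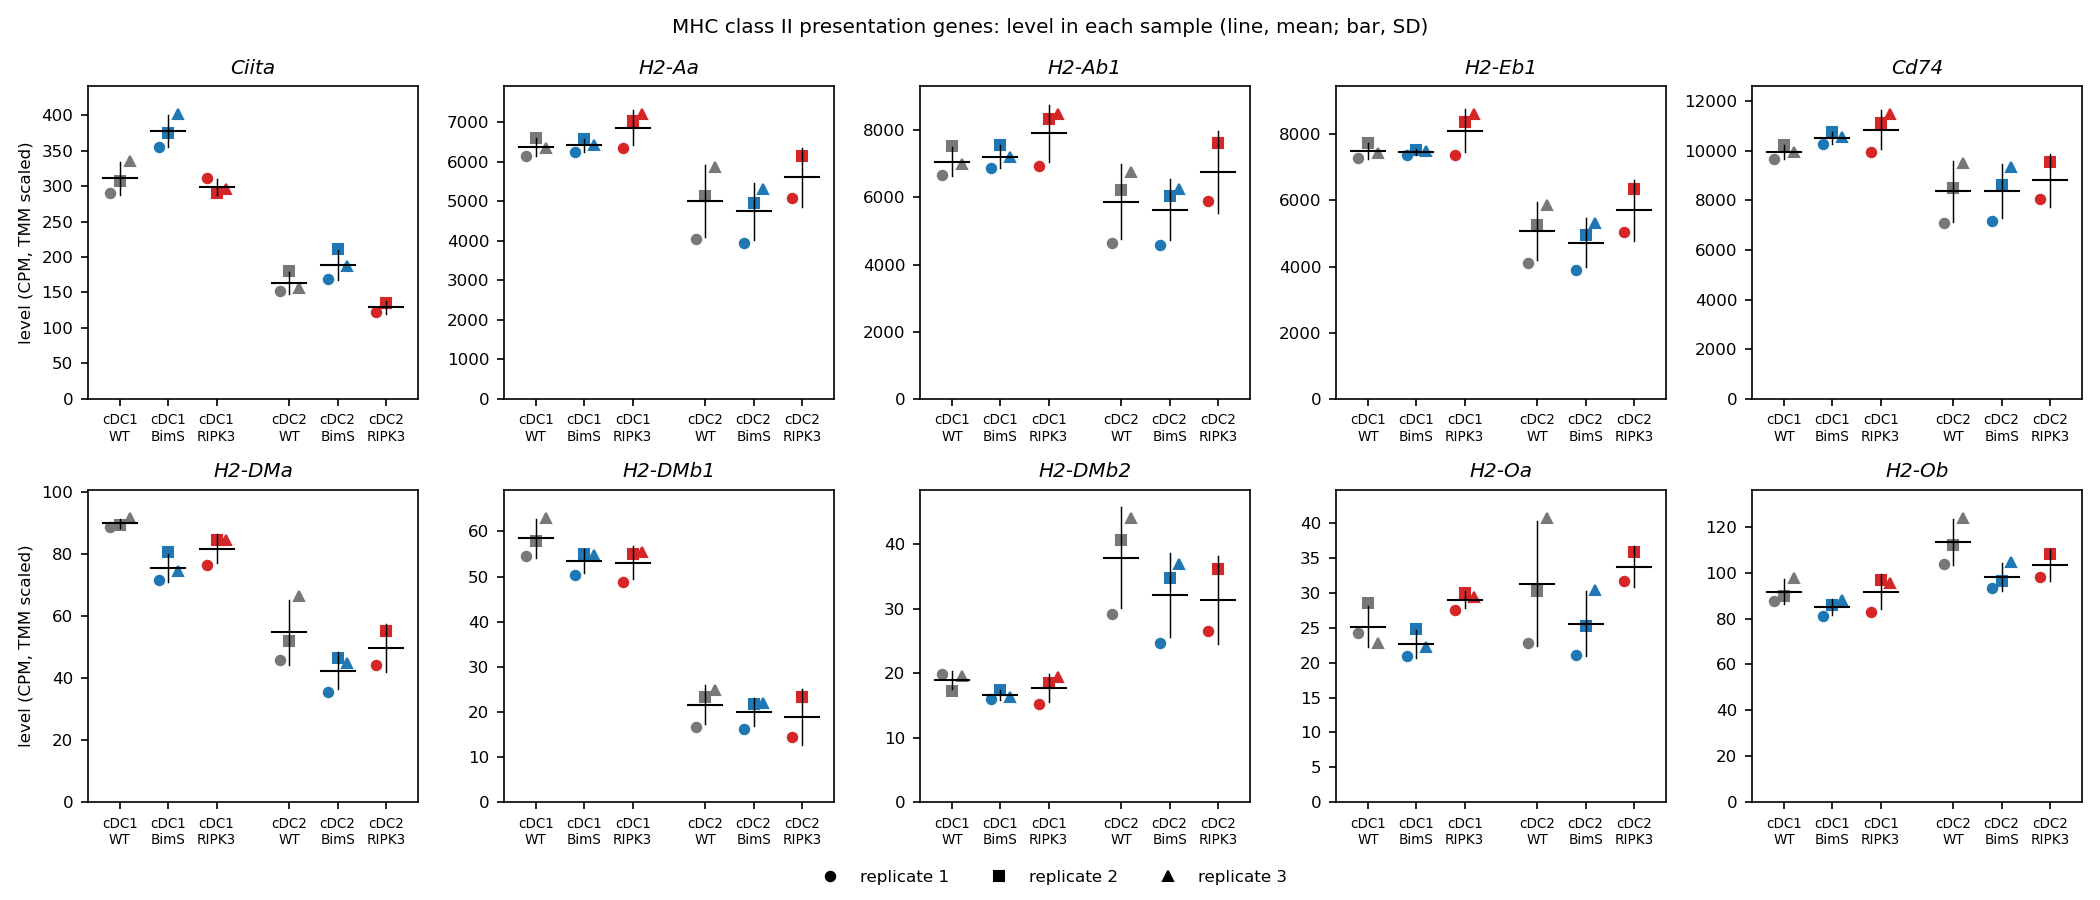
Level of each of the 10 genes in CPM on a linear axis that starts at 0, by cell type and medium. Points are samples (circle, square and triangle for replicates 1, 2 and 3), lines are means and bars are SD. Ciita lay between 289.8 and 401 CPM in cDC1s and between 123 and 211 CPM in cDC2s, and H2-DMb2 was the reverse of H2-DMb1 between the cell types.

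All 10 genes differed between cDC1s and cDC2s in a fit that also held the medium. Of them, 7 were higher in cDC1s, against 30.4% of all genes tested, and 3 were lower, against 29.4%. The regulator Ciita was 2.05-fold higher in cDC1s (log2 1.03 ± 0.05 SE, adjusted p = 6.09e-17). Among the H2-M chains, H2-DMb1 was higher by log2 1.44 ± 0.09 (adjusted p = 1.25e-11) and H2-DMa by 0.76 ± 0.07 (adjusted p = 2.38e-10). The presenting chains differed less: H2-Eb1 by 0.58 ± 0.07, H2-Aa by 0.36 ± 0.07, H2-Ab1 by 0.29 ± 0.08 and Cd74 by 0.29 ± 0.06, with adjusted p of 1.20e-06, 0.000141, 0.00719 and 5.14e-05. H2-DMb2 was lower in cDC1s by log2 -0.94 ± 0.10 (adjusted p = 4.47e-08), and both H2-O chains were also lower, H2-Ob by -0.23 ± 0.05 (adjusted p = 6.33e-05) and H2-Oa by -0.24 ± 0.10 (adjusted p = 0.0397). The H2-Oa call was lost when any of 11 of the 17 samples was left out, with differences of -0.24 to -0.16 and adjusted p of 0.0508 to 0.0877. These were replicates 1 and 3 of cDC1s with each medium, replicates 2 and 3 of the cDC2 WT and cDC2 BimS groups, and replicate 2 of the cDC2 RIPK3 group. It was also lost with scaling by total counts (-0.22, adjusted p = 0.0538), with limma on the deposited log2 values (-0.20, adjusted p = 0.0616) and with limma on log2(count + 1) (-0.03, adjusted p = 0.818), where H2-Ob was lost as well (-0.04, adjusted p = 0.653). Despite these calls, the samples of the cell types overlapped for H2-Ab1, H2-Oa and H2-Ob.

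H2-DMb1 and H2-DMb2, the alternative beta chains of H2-M, were used in opposite proportion by the cell types. In cDC1s H2-DMb1 was at 54.4, 57.9 and 63.0 CPM with WT medium, 50.4, 55.0 and 54.9 CPM with BimS medium and 48.8, 55.0 and 55.4 CPM with RIPK3 medium, against 15.3 to 19.8 CPM for H2-DMb2. In cDC2s H2-DMb1 was at 16.7, 23.3 and 24.8 CPM with WT medium, 16.3, 21.7 and 22.01 CPM with BimS medium and 14.5 and 23.3 CPM with RIPK3 medium. H2-DMb2 was there at 29.1, 40.6 and 44.1 CPM with WT medium, 24.7, 34.8 and 36.9 CPM with BimS medium and 26.5 and 36.2 CPM with RIPK3 medium. H2-DMb1 made up 73.3 to 77.0% of the reads of both genes in cDC1s and 35.3 to 39.8% in cDC2s, with no overlap in any medium. Because reads of these paralogs may have been split by the counting, their sum was tested as well. With WT medium the summed level reached 77.3 ± 4.57 CPM in cDC1s (SD, n = 3) against 59.5 ± 12.1 CPM in cDC2s (n = 3). Over all media the sum was higher in cDC1s by log2 0.43 ± 0.09 (adjusted p = 0.000643).

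**Figure D2:**
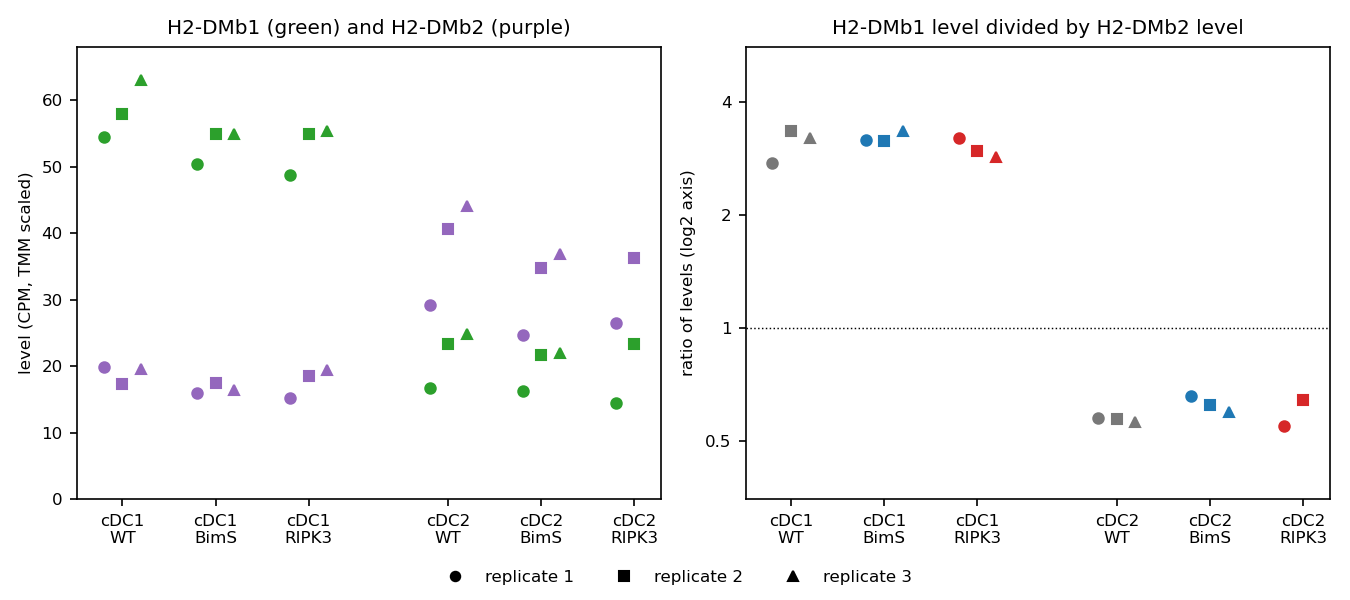
Left, levels of H2-DMb1 (green) and H2-DMb2 (purple) in CPM in each sample, by cell type and medium. Right, the ratio of the 2 levels on a log2 axis, with a dotted line where they are equal. Every cDC1 sample lies above the line and every cDC2 sample below it.

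Among chains left out of the 10, H2-Eb2, a second I-E-type beta chain gene, was at 5.75 to 8.42 CPM in cDC1s and 72.3 to 94.5 CPM in cDC2s with WT medium, a difference of log2 -3.60 ± 0.11 over all media (adjusted p = 4.85e-15). H2-Ea, the alpha chain of I-E, had at most 4 counts in any sample.

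The response to the medium was then compared within each cell type. Ciita was higher with BimS medium than with either other medium in cDC1s, and lower with RIPK3 than with BimS medium in both cell types. In cDC1s it was at 290.4, 307 and 336 CPM with WT medium, 356, 376 and 401 CPM with BimS medium and 312, 289.8 and 295 CPM with RIPK3 medium. All samples with BimS medium lay above all samples with either other medium. Ciita was 1.21-fold higher with BimS than with WT medium (log2 0.28 ± 0.05, adjusted p = 0.000196) and lower with RIPK3 than with BimS medium (log2 -0.34 ± 0.05, adjusted p = 0.000102). The first of these calls was lost with limma on log2(count + 1), the transformation used in the study's methods (0.24, adjusted p = 0.133). RIPK3 and WT medium gave a difference of -0.06 with a 95% interval of -0.17 to 0.05. In cDC2s Ciita was at 152, 181 and 157 CPM with WT medium, 169, 211 and 187 CPM with BimS medium and 123 and 135 CPM with RIPK3 medium. The samples with RIPK3 medium lay below all others. Ciita was lower with RIPK3 than with BimS medium (log2 -0.56 ± 0.11, adjusted p = 0.0214). This call was lost without replicate 2 of the BimS group (-0.47, adjusted p = 0.144) and with a stricter filter on low counts (-0.55, adjusted p = 0.0711). Without replicate 1 or 2 of the RIPK3 group the difference was -0.49 (adjusted p = 0.359) or -0.63 (adjusted p = 0.413), but 1 library was then left in that group, assumed to vary like the others, and 12 and 0 of all genes were called, so that these fits say little about Ciita.

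Samples with the same replicate number deviated together within a cell type, and mostly across cell types too. Each medium can thus also be read within a number. In cDC2s the samples of replicate 1 were the lowest in every medium for each of the 10 genes. With the replicate number as a block, Ciita in cDC2s was higher with BimS than with WT medium (log2 0.21 ± 0.04, adjusted p = 2.80e-05), lower with RIPK3 than with WT medium (-0.37 ± 0.05, adjusted p = 1.46e-10) and lower with RIPK3 than with BimS medium (-0.58 ± 0.05, adjusted p = 2.38e-24). Without the block the first of these had adjusted p = 0.240 and the second adjusted p = 0.0553. The ratio of Ciita with BimS to WT medium was 1.19 to 1.23 in the 3 number-matched pairs of cDC1s and 1.11 to 1.19 in those of cDC2s. The ratio of RIPK3 to WT medium was 0.747 to 0.809 in the 2 pairs of cDC2s, and 0.880 to 1.08 in the 3 pairs of cDC1s.

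Between RIPK3 and BimS medium the presenting chains went another way than Ciita. Without the block no difference of these chains between media passed in the main fit. Between BimS and WT medium in cDC1s, H2-Ab1 was higher in all 3 number-matched pairs (ratios 1.005 to 1.029), as Ciita was. H2-Ab1 in cDC1s was at 6685, 7523 and 6998 CPM with WT medium, 6870, 7558 and 7203 CPM with BimS medium and 6931, 8336 and 8475 CPM with RIPK3 medium. In cDC2s it was at 4630, 6226 and 6767 CPM with WT medium, 4585, 6059 and 6251 CPM with BimS medium and 5885 and 7620 CPM with RIPK3 medium. The groups overlapped in both cell types, whereas within each replicate number RIPK3 medium gave the highest value. H2-Aa in cDC2s was at 4044, 5127 and 5868 CPM with WT medium, 3945, 4969 and 5320 CPM with BimS medium and 5085 and 6144 CPM with RIPK3 medium. H2-Eb1 in cDC2s was at 4117, 5256 and 5857 CPM, then 3897, 4949 and 5331 CPM, and 5055 and 6350 CPM in the same order of media. Number-matched ratios of RIPK3 to BimS medium in cDC2s were 1.24 to 1.29 for H2-Aa, 1.26 to 1.28 for H2-Ab1 and 1.28 to 1.30 for H2-Eb1. With the replicate block these were differences of log2 0.34 ± 0.04, 0.35 ± 0.04 and 0.36 ± 0.04 (adjusted p = 1.30e-13, 3.01e-14 and 1.79e-15). Without the block they were 0.24, 0.25 and 0.26 and did not pass (adjusted p = 0.744, 0.775 and 0.718). In cDC1s the same comparison with the block gave 0.10, 0.13 and 0.12, each ± 0.03 (adjusted p = 0.0487, 0.00447 and 0.0114). Without the block these did not pass (0.10, 0.13 and 0.12, adjusted p = 0.289, 0.427 and 0.180). They were called when replicate 1 of the cDC1 RIPK3 group was left out (0.15, 0.22 and 0.19, adjusted p = 0.0291, 0.00152 and 0.00406), and H2-Ab1 also with no filter on low counts (0.14, adjusted p = 0.0355). The ratio for H2-Eb1 was 1.00 in 1 of the 3 number-matched cDC1 pairs. In cDC2s the summed B cell markers were also lowest with BimS medium (29.1 to 35.6 CPM) and highest with RIPK3 medium (49.98 to 50.2 CPM), against 36.8 to 43.5 CPM with WT medium. The sum followed Ighm, the 1 marker of the 10 that was called without the block. Ighm was lower with BimS than with WT medium (-0.37, adjusted p = 0.0342) and higher with RIPK3 than with BimS medium (0.68, adjusted p = 0.00708). Of the 10, 4 had a negative difference between BimS and WT medium and 6 a positive one between RIPK3 and BimS medium. With the block 1 was lower for BimS against WT medium, 2 higher for RIPK3 against WT and 1 higher for RIPK3 against BimS medium. The shares of all genes in these fits were 10.3%, 10.0% and 5.92%. B cells express these chains, and their part in the result was not tested. Macrophages carry MHC class II as well. Between RIPK3 and BimS medium in cDC2s, the block called 4 of 8 macrophage markers higher and 1 lower (5.92% and 8.40% of all genes). The unblocked fit called 0. The part of macrophages was not tested either.

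**Figure D3:**
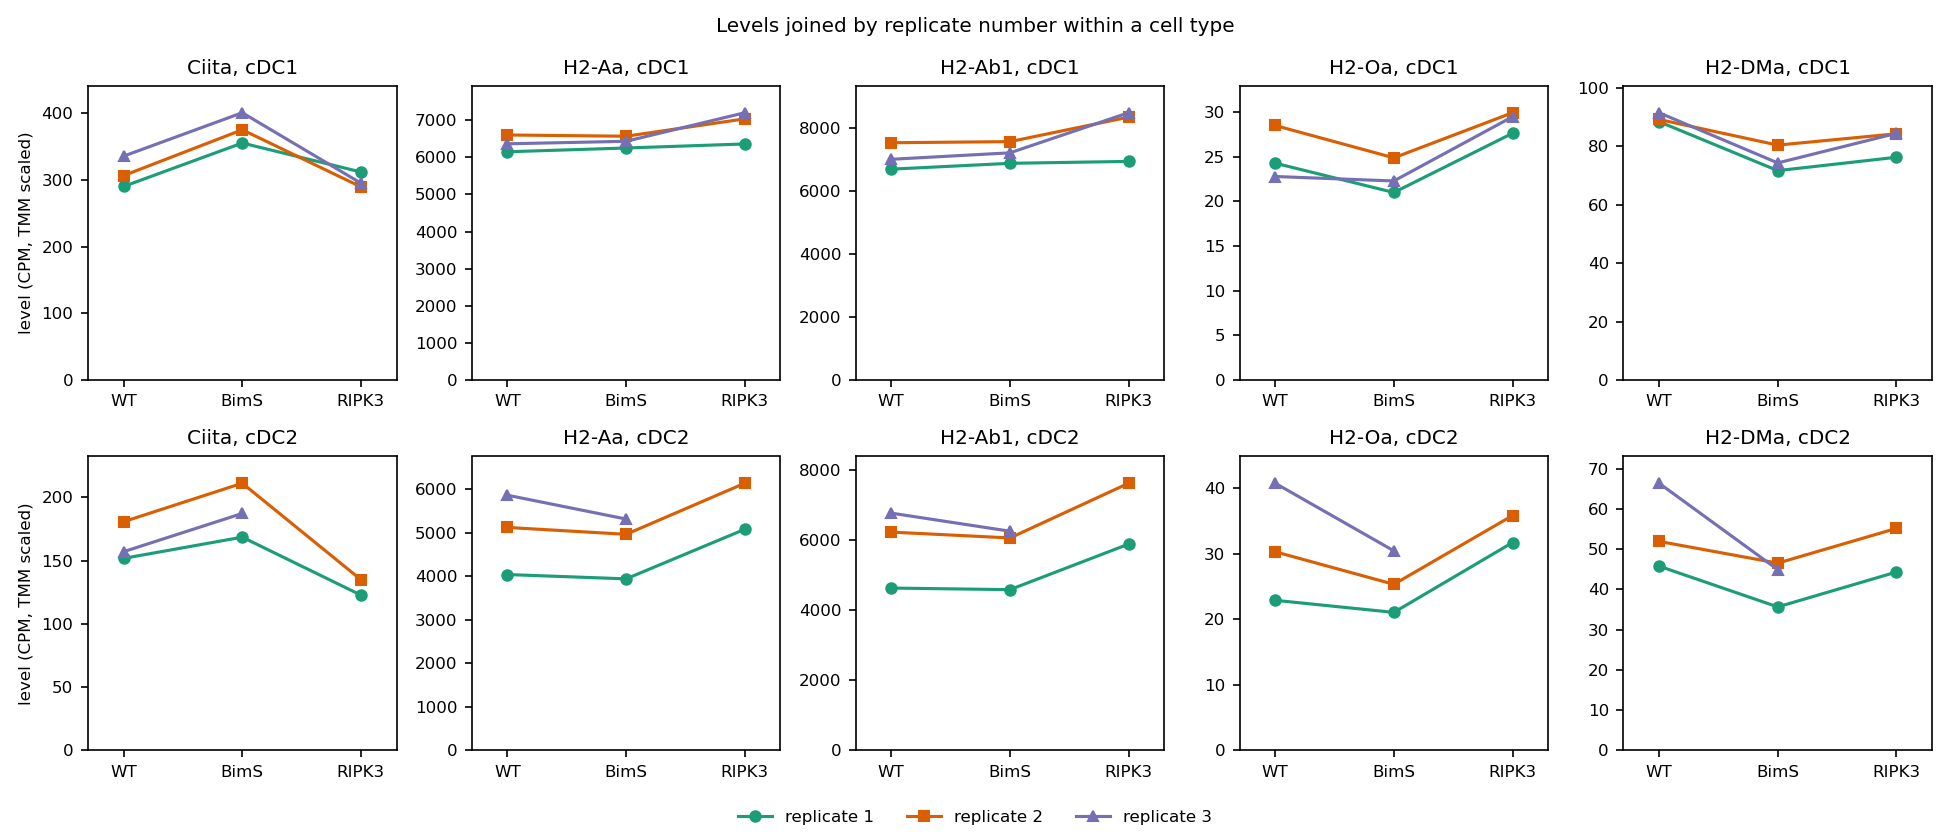
Levels of Ciita, H2-Aa, H2-Ab1, H2-Oa and H2-DMa in CPM on linear axes that start at 0, in cDC1s (top) and cDC2s (bottom) with WT, BimS and RIPK3 medium. Lines join samples with the same replicate number; cDC2s with RIPK3 medium have replicates 1 and 2. In every line of cDC2s, Ciita peaks with BimS medium, where H2-Aa, H2-Ab1 and H2-Oa are lowest.

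Cd74, the invariant chain, was higher with RIPK3 than with WT medium in both cell types with the block. It was at 9682, 10220 and 9945 CPM in cDC1s with WT medium, 10270, 10760 and 10570 CPM with BimS medium and 9974, 11120 and 11470 CPM with RIPK3 medium. In cDC2s it was at 7091, 8492 and 9502 CPM, then 7172, 8631 and 9346 CPM, and 8053 and 9559 CPM. Its difference between RIPK3 and WT medium was log2 0.13 ± 0.05 in cDC1s (adjusted p = 0.0563) and 0.07 ± 0.13 in cDC2s (adjusted p = 0.875), and with the block 0.12 ± 0.03 (adjusted p = 0.00161) and 0.16 ± 0.04 (adjusted p = 0.00177). The cDC1 difference was called without the block under 5 alternatives, at 0.12 to 0.18 (adjusted p = 0.00136 to 0.0491): RLE size factors, no filter on low counts, limma on log2 CPM, and leaving out replicate 1 of the BimS or of the RIPK3 group. Between RIPK3 and BimS medium Cd74 differed in cDC2s by 0.06 ± 0.13 (adjusted p = 0.939), and with the block by 0.15 ± 0.04 (adjusted p = 0.00354). The summed B cell markers of cDC2s given above were likewise highest with RIPK3 medium. The part of B cells in the Cd74 result was not tested.

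Among the genes that edit the peptide cargo, H2-DMa fell with BimS medium. It was at 88.5, 89.2 and 91.5 CPM in cDC1s with WT medium, 71.7, 80.4 and 74.3 CPM with BimS medium and 76.3, 84.3 and 84.5 CPM with RIPK3 medium, and the samples with WT medium lay above all others. In cDC2s it was at 45.8, 51.9 and 66.4 CPM with WT medium, 35.6, 46.5 and 44.9 CPM with BimS medium and 44.3 and 55.1 CPM with RIPK3 medium. BimS and WT medium differed by log2 -0.25 ± 0.06 in cDC1s (adjusted p = 0.00166) and by -0.37 ± 0.14 in cDC2s (adjusted p = 0.169). The cDC2 difference was -0.36 ± 0.06 with the block (adjusted p = 1.05e-08), and was called in the unblocked fit without replicate 1 of the WT group (-0.48, adjusted p = 0.0334). The cDC1 call was lost with limma on log2(count + 1) (-0.29, adjusted p = 0.0774). Macrophages also carry MHC class II, and their 8 markers summed to 8.60 to 11.2 CPM with WT medium, 4.49 to 4.74 CPM with BimS medium and 3.69 to 5.98 CPM with RIPK3 medium in cDC1s, and to 17.4 to 29.6, 17.7 to 20.4 and 15.2 to 19.8 CPM in cDC2s. Between BimS and WT medium 2 of the 7 tested in cDC1s were called lower (C1qc and Fcgr1) and 0 of the 8 in cDC2s. Of all genes 5.89% and 3.21% were called lower. All 7 and all 8 markers had a negative difference. With the block 5 and 1 of them were called lower, against 8.51% and 10.3% of all genes. The part of macrophages in the result was not tested.

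H2-Oa, the alpha chain of H2-O, was higher with necroptotic than with apoptotic debris. In cDC1s it was at 24.3, 28.5 and 22.8 CPM with WT medium, 21.0, 24.9 and 22.3 CPM with BimS medium and 27.6, 29.9 and 29.5 CPM with RIPK3 medium, and the last 2 groups did not overlap. In cDC2s it was at 22.9, 30.3 and 40.7 CPM with WT medium, 21.0, 25.3 and 30.4 CPM with BimS medium and 31.7 and 35.8 CPM with RIPK3 medium. RIPK3 and BimS medium differed by log2 0.35 ± 0.08 in cDC1s (adjusted p = 0.00820), by 0.30 (adjusted p = 0.0518) without replicate 1 of the cDC1 BimS group, and by 0.27 (adjusted p = 0.282) with limma on log2(count + 1). In cDC2s the difference was 0.39 ± 0.22 (adjusted p = 0.675), and with the block 0.58 ± 0.08 (adjusted p = 2.79e-10). The summed B cell markers of cDC2s given above moved with H2-Oa too, which B cells also express. Their part in the result was not tested. The partner chain H2-Ob was at 81.1 to 97.7 CPM over the 9 cDC1 samples and at 93.2 to 124 CPM in cDC2s. In cDC2s H2-Ob differed between BimS and WT medium by -0.21 ± 0.09 (adjusted p = 0.194), and with the block by -0.21 ± 0.05 (adjusted p = 0.000176).

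Counted over the 10 genes, 0 to 2 passed the test in each comparison of media without the block. The median log2 fold change of the 10 was -0.06, 0.05 and 0.10 in cDC1s and -0.11, -0.04 and 0.14 in cDC2s for BimS against WT, for RIPK3 against WT, and for RIPK3 against BimS medium, where the median of all genes tested lay between -0.02 and 0.002. In cDC1s with BimS against WT medium, Ciita was higher and H2-DMa lower, against 7.31% higher and 5.89% lower of all genes tested. With RIPK3 against WT medium 0 genes were called by edgeR, against 8.34% higher and 8.19% lower of all genes. Here 7 of the 10 had an unadjusted p under 0.05, against 26.3% of all genes, and DESeq2 called 0, limma on log2 CPM 1, limma on the deposited log2 values 2 and limma on log2(count + 1) 0. With RIPK3 against BimS medium, H2-Oa was higher and Ciita lower, against 1.94% and 2.21% of all genes. These counts moved with single samples. Without replicate 1 of the cDC1 RIPK3 group, 4 genes were called against WT medium, where that fit called 15.2% of all genes in either direction, and 5 against BimS medium, where it called 5.09%. Against WT medium, 1 was called without replicate 2 of the WT group, without replicate 1 of the BimS group or without replicate 3 of the RIPK3 group, where 13.7%, 16.3% and 16.4% of all genes were called, and against BimS medium 1 without replicate 1 of the BimS group, where 3.18% were.

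In cDC2s with BimS against WT medium 0 of the 10 were called by edgeR, against 3.80% higher and 3.21% lower of all genes, with 3 at an unadjusted p under 0.05 (18.2% of all genes). DESeq2 and limma on log2 CPM called 0, and both other limma fits 1. With RIPK3 against WT medium 0 were called, against 3.93% higher and 3.28% lower of all genes, with 1 at an unadjusted p under 0.05 (18.5% of all genes). Again DESeq2 and limma on log2 CPM called 0 and both other limma fits 1. Without replicate 1 of the cDC2 WT group, H2-DMa was called with BimS medium and Ciita with RIPK3 medium (-0.40, adjusted p = 0.0255). Ciita was likewise called without replicate 3 of that group (-0.38, adjusted p = 0.0243). Of all genes these fits called 8.09%, 7.14% and 9.74%. With RIPK3 against BimS medium, Ciita was lower and no gene higher, against 0.218% lower and 0.161% higher of all genes.

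With the replicate number as a block, 2 genes in cDC1s were called between BimS and WT medium, again Ciita higher and H2-DMa lower, against 9.36% higher and 8.51% lower of all genes. Between RIPK3 and WT medium 5 genes (H2-Aa, H2-Ab1, H2-Eb1, Cd74 and H2-Oa) were higher and 2 (H2-DMa and H2-DMb1) lower in cDC1s, against 10.3% and 10.7% of all genes. Between RIPK3 and BimS medium 4 (H2-Aa, H2-Ab1, H2-Eb1 and H2-Oa) were higher and Ciita lower, against 4.07% and 4.79%. In cDC2s with BimS against WT medium, Ciita was higher and 5 genes (H2-Eb1, H2-DMa, H2-DMb2, H2-Oa and H2-Ob) lower, against 11.0% and 10.3%. With RIPK3 against WT medium 5 (H2-Aa, H2-Ab1, H2-Eb1, H2-Oa and Cd74) were higher and Ciita lower, against 10.0% and 11.4%. With RIPK3 against BimS medium 6 (those 5 and H2-DMa) were higher and Ciita lower, against 5.92% and 8.40%. The blocked differences not given above were as follows. For RIPK3 against WT medium H2-Aa, H2-Ab1 and H2-Eb1 were higher by log2 0.11, 0.16 and 0.11 in cDC1s (adjusted p = 0.00952, 7.38e-05 and 0.00578) and by 0.26, 0.29 and 0.26 in cDC2s (adjusted p = 1.14e-08, 2.26e-10 and 1.69e-08). H2-Oa was higher by 0.21 (adjusted p = 0.0180) and 0.30 (adjusted p = 0.00217), and in cDC1s H2-DMa and H2-DMb1 were lower by -0.14 and -0.14 (adjusted p = 0.0287 and 0.0489). For BimS against WT medium in cDC2s, H2-Eb1 was lower by -0.10 (adjusted p = 0.0260), H2-DMb2 by -0.24 (adjusted p = 0.00179) and H2-Oa by -0.28 (adjusted p = 0.000617). For RIPK3 against BimS medium in cDC2s, H2-DMa was higher by 0.32 (adjusted p = 9.82e-05). The 3 comparisons of a cell type share samples, so that their counts are not separate evidence.

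**Figure D4:**
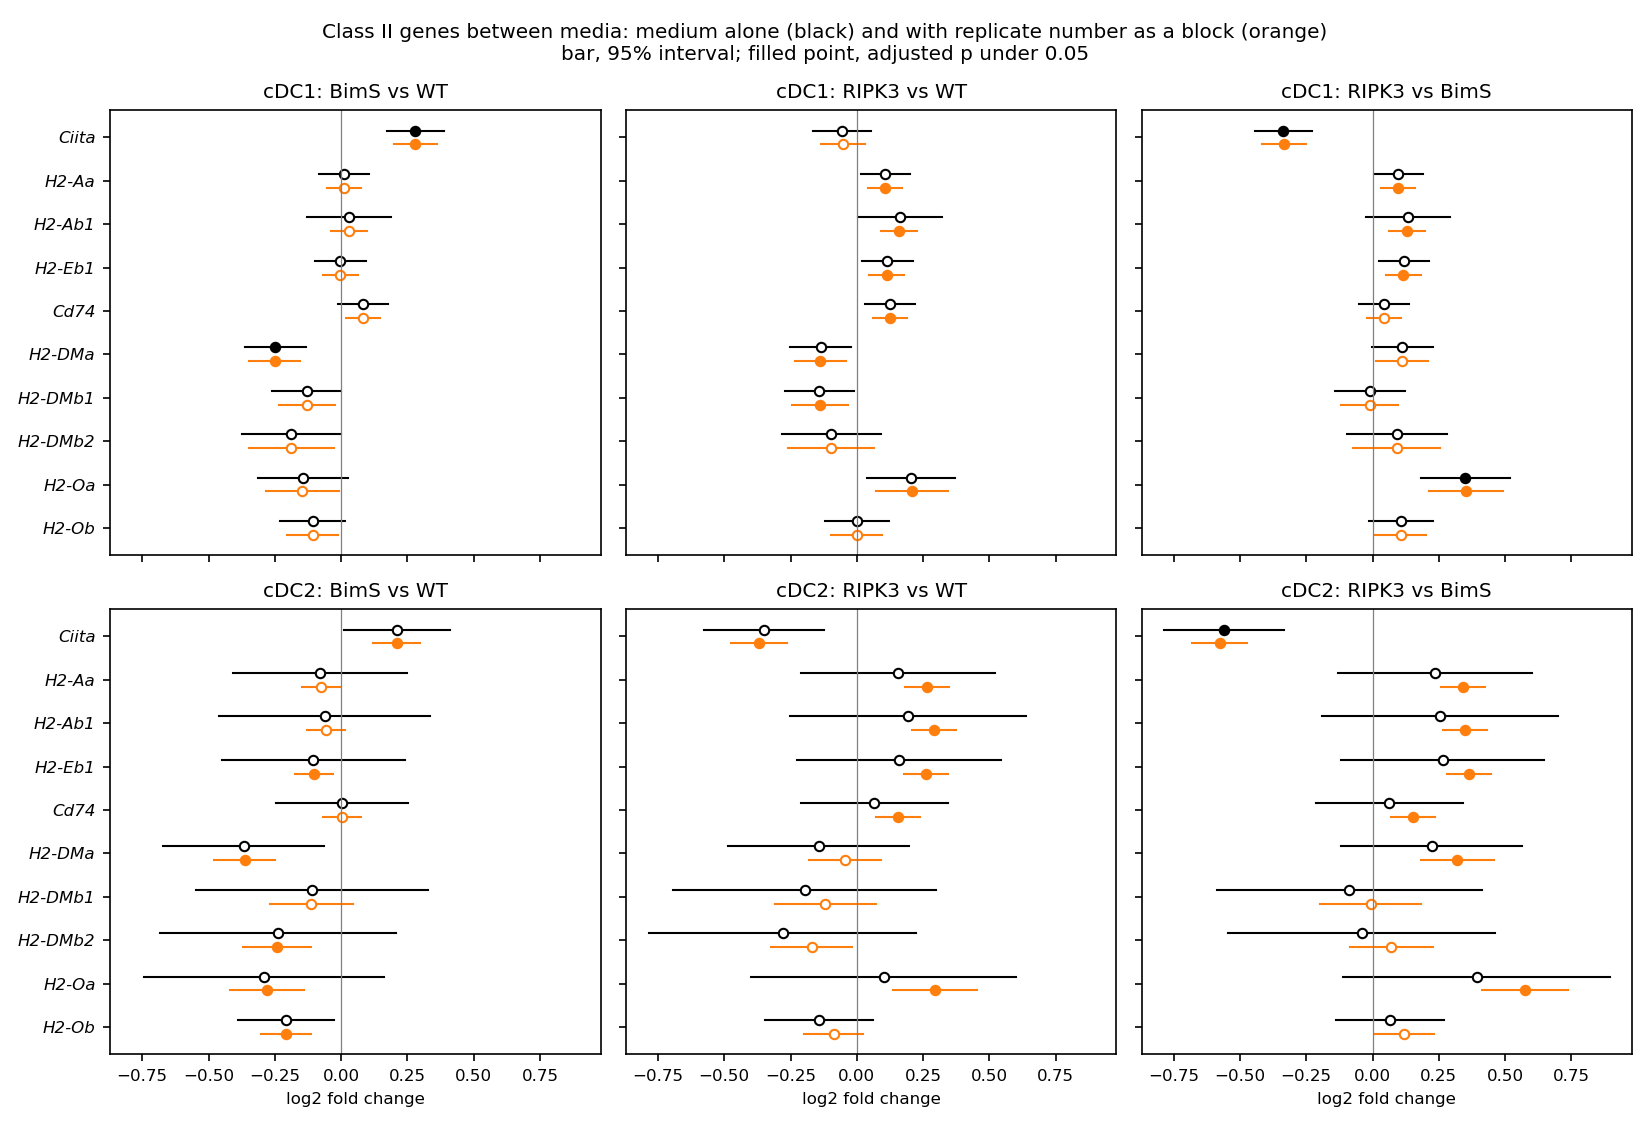
Log2 fold changes of the 10 genes between media in cDC1s (top) and cDC2s (bottom), with 95% intervals. Black points come from the fit with medium alone and orange points from the fit with the replicate number as a block; filled points had an adjusted p under 0.05. The block narrows the intervals of cDC2s, and Ciita lies on the opposite side of 0 from H2-Aa, H2-Ab1 and H2-Eb1 between RIPK3 and BimS medium in both cell types.

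The difference in response between the cell types was tested with an interaction term. Of the 10 genes, 0 were called by edgeR for BimS against WT medium, against 0.870% of all genes, 0 for RIPK3 against WT medium, against 1.14%, and 0 for RIPK3 against BimS medium, against 0.0314%. DESeq2 and the 3 limma fits also called 0. Over the 3 comparisons, an unadjusted p under 0.05 (5.09 to 8.57% of all genes) was found for 1 gene, Ciita, whose response to RIPK3 against WT medium was log2 0.28 ± 0.12 higher in cDC1s than in cDC2s (95% interval 0.04 to 0.53, adjusted p = 0.443). For H2-Ab1 the difference in response to RIPK3 against WT medium was -0.04 with an interval of -0.53 to 0.46.

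Genes that share the profile of Ciita over the 6 group means were sought among 7945 genes, by the root mean square difference of centred log2 levels. The closest were Atic (0.0504), Prrg4 (0.0933), Zfp111 (0.0984), Dip2a (0.103) and Nckap1l (0.119). The mean of H2-Aa, H2-Ab1 and H2-Eb1 was matched most closely by Nsmf (0.0309), Mcm2 (0.0316), Trappc1 (0.0370), Cd68 (0.0396) and Kctd11 (0.0404). Of these, Cd68 encodes a lysosomal membrane protein of phagocytes and Mcm2 a part of the replicative helicase.

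Other genes of the pathway were read from lists of CIITA partners and regulators (17 genes), endosomal proteases with their inhibitors (12) and surface turnover and trafficking (12). Among CIITA partners and regulators, 4 rose and 2 fell with BimS medium in cDC1s, and 5 rose and 1 fell in cDC2s. With RIPK3 medium 5 rose and 1 fell in cDC1s and 3 rose and 1 fell in cDC2s, the background being that given above for each comparison. Irf1, an inducer of Ciita, rose from 175 to 184 CPM with WT medium to 232 to 268 CPM with BimS medium in cDC1s (log2 0.48 ± 0.05, adjusted p = 4.98e-09), and by 0.52 ± 0.08 in cDC2s (adjusted p = 0.000240). Irf1 also rose with RIPK3 medium, by 0.44 ± 0.05 in cDC1s (adjusted p = 2.83e-08) and 0.44 ± 0.09 in cDC2s (adjusted p = 0.00284). Nfya and Nfyb, subunits of the Y box factor NF-Y, rose with BimS medium by 0.47 and 0.51 in cDC1s and by 0.39 and 0.42 in cDC2s. With RIPK3 medium they rose by 0.30 and 0.46 in cDC1s, and Nfyb rose by 0.46 in cDC2s, where Nfya differed by 0.13 (adjusted p = 0.529). Prdm1, a repressor of Ciita in plasma cells, rose by 1.21 with BimS and 1.38 with RIPK3 medium in cDC1s and by 0.78 and 0.68 in cDC2s. Zbtb46, a cDC factor, rose in cDC2s with BimS medium by 0.38 (adjusted p = 0.0143), and Rfxank, a subunit of the X box factor RFX, rose in cDC1s with RIPK3 medium by 0.27 (adjusted p = 0.00656).

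Irf8 and Irf4, factors of the cDC1 and cDC2 lineage, fell. Irf8, which cDC1s depend on, went from 279 to 334 CPM with WT medium to 177 to 194 CPM with BimS medium and 167 to 184 CPM with RIPK3 medium in cDC1s, by log2 -0.75 ± 0.06 and -0.82 ± 0.06 (adjusted p = 3.78e-12 and 4.09e-13). Irf4, which serves cDC2s, went from 35.1 to 39.1 CPM to 15.0 to 19.5 CPM and 12.6 to 13.4 CPM in cDC2s, by -1.16 ± 0.11 and -1.52 ± 0.13 (adjusted p = 8.71e-07 and 2.42e-07). Both genes also stand among the markers of their cell type used above. Rfxap, a further RFX subunit, fell in cDC1s with BimS medium by -0.26 (adjusted p = 0.00101). Nfyc, Creb1, Crebbp, Ep300, Kat2b, Spi1 and Rfx5, also of this list, were called in no comparison of media without the block. Between RIPK3 and BimS medium 0 of the 17 were called by edgeR in either cell type without the block. At an unadjusted p under 0.05 there were 5 in cDC1s and 4 in cDC2s (15.5% and 8.59% of all genes). The block called 3 and 9 (8.87% and 14.3% of all genes). Between BimS and WT medium the block called 9 in each cell type (17.9% and 21.3% of all genes), where the unblocked fit called 6. Between RIPK3 and WT medium in cDC2s the block called 9 (21.4% of all genes), where the unblocked fit called 4.

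Of the endosomal genes, Ctsd and Ctsz, which encode cathepsins D and Z, rose in cDC1s with BimS medium by log2 0.61 and 0.23 and with RIPK3 medium by 0.64 and 0.31. Sppl2a, which clears a membrane stub of the invariant chain, rose by 0.17 and 0.15. Ctsl fell in cDC1s with BimS and RIPK3 medium by -0.51 and -0.58, and Ctsh and Lgmn fell with BimS medium by -0.28 and -0.24. In cDC2s with BimS medium 5 of the 12 fell and none rose, against 3.21% and 3.80% of all genes. These were Ctss (-0.40), the protease that trims the invariant chain, Ctsc (-0.50), Ctsh (-0.39), the thiol reductase Ifi30 (-0.42) and the inhibitor Cst3 (-0.66). With RIPK3 medium Ctss, Ctsc, Ifi30 and Cst3 fell in cDC2s by -0.33, -0.49, -0.54 and -0.94, and Lgmn rose by 0.33. Ifi30 was at 134 to 137 CPM in cDC1s with WT medium, 133 to 137 CPM with BimS medium and 115 to 117 CPM with RIPK3 medium, and fell with RIPK3 medium by -0.23 ± 0.05 (adjusted p = 0.000566). Between RIPK3 and BimS medium Lgmn was higher in both cell types (0.24 and 0.42, adjusted p = 0.00314 and 0.0273), and Ifi30 lower in cDC1s (-0.22, adjusted p = 0.00431). With the block 3 of the 12 were higher and 7 lower in cDC2s between BimS and WT medium (11.0% and 10.3% of all genes), 4 and 5 between RIPK3 and WT medium (10.0% and 11.4%), and 4 and 2 between RIPK3 and BimS medium (5.92% and 8.40%).

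Among genes of turnover at the surface, Marchf1 and Cd83 moved in opposite directions. Marchf1 encodes the ubiquitin ligase that sends class II molecules to lysosomes, and CD83 opposes it. Marchf1 was at 42.5, 42.3 and 50.2 CPM in cDC1s with WT medium, 71.0, 72.1 and 83.5 CPM with BimS medium and 61.1, 53.6 and 63.4 CPM with RIPK3 medium, with no overlap between any of the groups. It rose by log2 0.74 ± 0.08 with BimS medium (adjusted p = 2.54e-07) and 0.40 ± 0.08 with RIPK3 medium (adjusted p = 0.000825), and was lower with RIPK3 than with BimS medium by -0.35 ± 0.08 (adjusted p = 0.00933). In cDC2s Marchf1 was near the floor, at 1.03 to 1.84, 3.35 to 4.24 and 1.42 to 1.93 CPM, and rose with BimS medium by 1.43 ± 0.24 (adjusted p = 0.000478). Cd83 was at 1862 to 1959 CPM in cDC1s with WT medium, 1399 to 1547 CPM with BimS medium and 1469 to 1584 CPM with RIPK3 medium, and fell by -0.38 ± 0.05 and -0.31 ± 0.05 (adjusted p = 7.48e-08 and 2.27e-06). In cDC2s it fell with BimS medium by -0.40 ± 0.08 (adjusted p = 0.00148). The difference with RIPK3 medium was -0.25 ± 0.08 (adjusted p = 0.0877), and -0.21 with the block (adjusted p = 3.99e-05). The tetraspanin Cd81 and Lamp2, a lysosomal membrane protein, rose in cDC1s with both kinds of debris, Rab7 with BimS medium and the tetraspanin Cd63 with RIPK3 medium, while Cd81 rose in cDC2s with RIPK3 medium (0.67, adjusted p = 0.0368). Arl8b, a lysosomal trafficking GTPase, was lower with RIPK3 than with BimS medium in cDC1s (-0.18, adjusted p = 0.0322). With the block 6 of the 12 were called between RIPK3 and BimS medium in cDC1s (8.87% of all genes), where the unblocked fit called 2. In cDC2s the block called 5 for BimS against WT, 5 for RIPK3 against WT and 4 for RIPK3 against BimS medium. Of all genes it called 21.3%, 21.4% and 14.3%. The unblocked fit called 2, 1 and 0 of the 12, the last with 4 at an unadjusted p under 0.05 (8.59% of all genes).

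**Figure D5:**
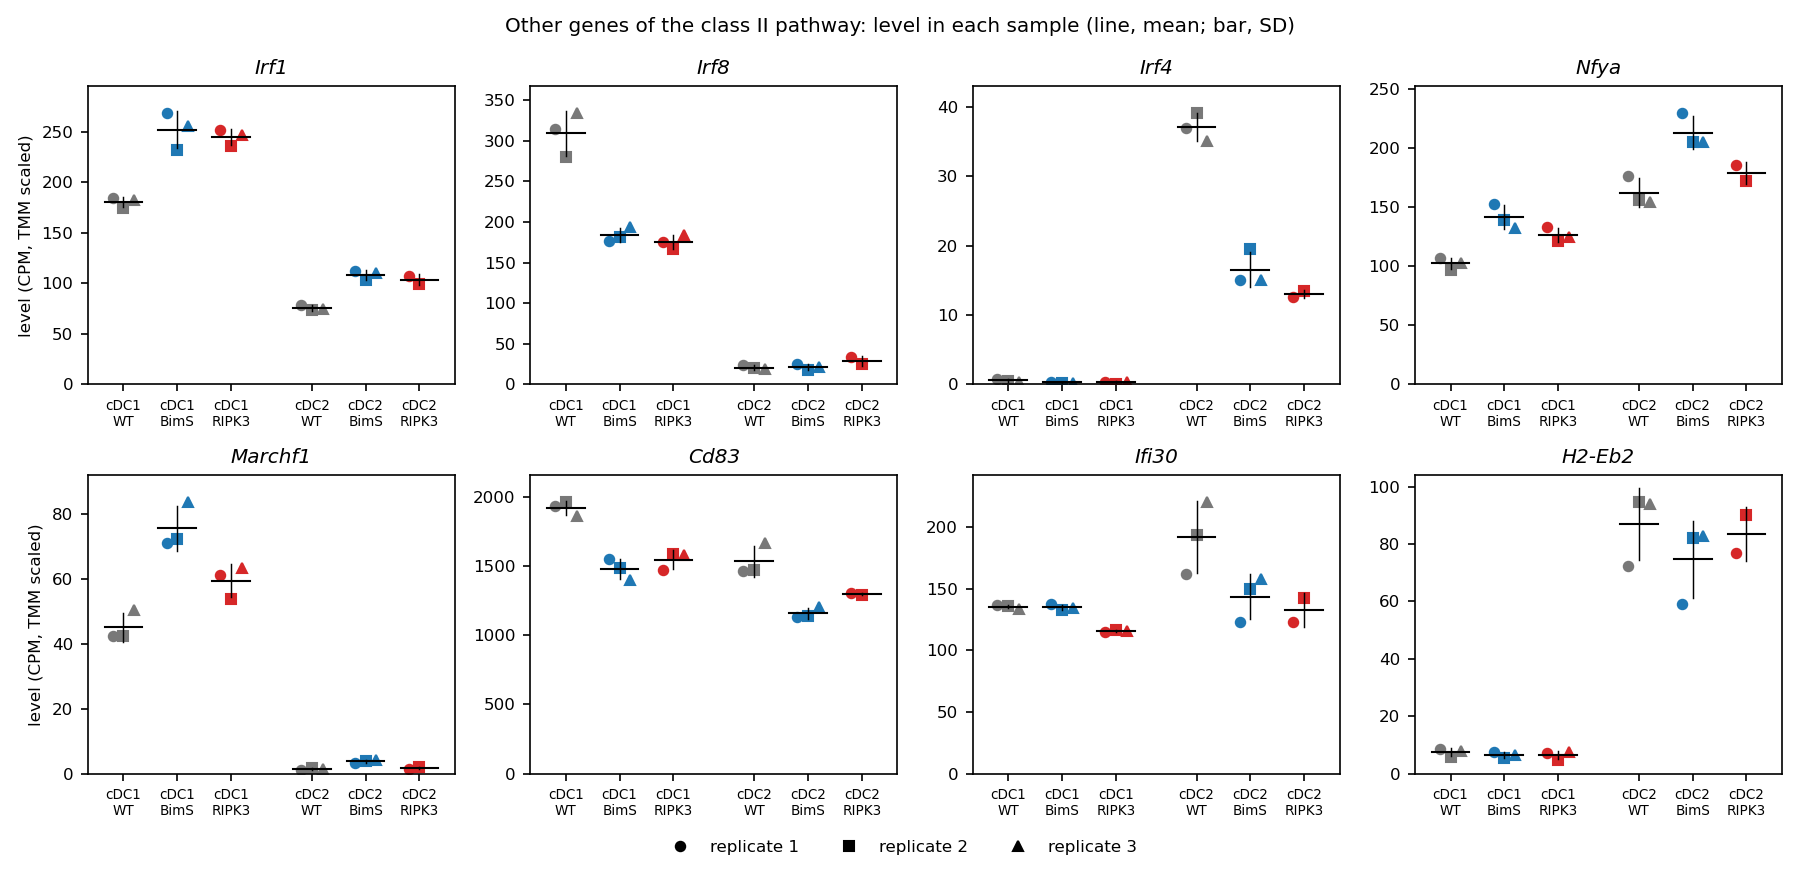
Levels of 8 further genes of the class II pathway in CPM on linear axes that start at 0, by cell type and medium, with points for samples, lines for means and bars for SD. Irf1 is higher with both kinds of debris in both cell types, Irf8 falls in cDC1s and Irf4 in cDC2s, and Marchf1 in cDC1s is highest with BimS medium.

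Between the cell types, where 30.4% of all genes were higher and 29.4% lower in cDC1s, most genes of these lists were called. Of the 12 endosomal genes 2 were higher and 9 lower in cDC1s, with Cst3 (2.69) and Ctsb (0.72) higher and Ctsc (-1.78), Ctsd (-1.67) and Ctsz (-1.48) among the lower. Of the 12 genes of turnover 8 were higher and 3 lower, led by Cd81 (6.39), Marchf1 (4.68) and Marchf8 (3.57). Of the 17 CIITA partners and regulators 5 were higher and 10 lower, among them Irf1 (1.24) higher and all NF-Y subunits lower, Nfya by -0.59, Nfyb by -0.67 and Nfyc by -0.51.

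Class I presentation genes (7) were read beside these. Between the cell types 4 were higher and 3 lower in cDC1s, against 30.4% and 29.4% of all genes, and the class I transactivator Nlrc5 was higher by 0.50 ± 0.06 (adjusted p = 5.00e-09). In cDC1s with RIPK3 medium 3 rose, the heavy chains H2-K1 (0.21) and H2-D1 (0.20) and their light chain B2m (0.16), and 2 fell, the peptide transporter Tap1 (-0.19) and Nlrc5 (-0.48), against 8.34% and 8.19% of all genes. With BimS medium H2-K1 rose (0.18) and Tap1 fell (-0.18) in cDC1s, against 7.31% and 5.89%. In cDC2s Tap1 and Nlrc5 fell with BimS medium (-0.48 and -0.39) and with RIPK3 medium (-0.57 and -0.57), against 3.21% and 3.28% of all genes that fell. None rose without the block. Between RIPK3 and BimS medium Nlrc5 was lower in cDC1s (-0.32), where 2.21% of all genes were. In cDC2s 0 of the 7 were called by edgeR without the block, with 0 at an unadjusted p under 0.05. With the block, 2 of the 7 were higher and 3 lower in cDC2s for BimS against WT medium (11.0% and 10.3% of all genes). For RIPK3 against WT medium they were 2 and 4 (10.0% and 11.4%), and for RIPK3 against BimS medium 1 and 1 (5.92% and 8.40%). In cDC1s the block called 3 and 2 (9.36% and 8.51%), 3 and 2 (10.3% and 10.7%) and 0 and 2 (4.07% and 4.79%), in the same order.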

How the data were processed

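The deposited count table holds reads per gene without normalization, which the authors made with SeqPurge, STAR 2.7.10a (GRCm39, Ensembl gene models) and gensum. The deposited log2 values are the same counts scaled by the authors to a common total per sample. They entered 1 alternative. Lines without a gene identifier (148 of 31239, at most 0.0366% of counts in a sample) were left out. Tests were made on counts with edgeR 4.0.16 in R 4.3.3 (quasi-likelihood, robust, TMM) on genes detected in 50% or more of the samples that entered a fit, two-sided, with Benjamini-Hochberg adjustment over all genes and a threshold of 0.05. Fits used the 9 cDC1 or the 8 cDC2 samples for the media, and all 17 for cell type (additive) and interactions. The code was tested on simulated data. Errors of log2 fold changes are SE. Of same-numbered pairs within a cell type, 16 of 16 deviated together (r over 0.1), against 4 of 32 pairs with different numbers. Across cell types 19 of 24 same-numbered pairs did, against 4 of 48. The fits without a block took all samples as independent. A replicate block was therefore fitted, and its values are given where a call of the 10 genes changed. Alternatives were DESeq2 1.42.0, limma 3.58.1, other scalings and filters, the summed H2-DMb genes and leaving out samples. Identity was computed with Biopython. The 10 genes, all lists, motifs and markers were chosen with earlier results of these data known. Named genes were the 10 members, list genes called or counted among those not called, and the 5 nearest profiles; overlapping genes and markers are named where a value of a member touches them. Some genes of the lists are counted but not reported here by name.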

Additional observations from a re-analysis of the deposited data

How the results depend on the processing

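Over 100 results for the 10 genes (10 comparisons each), 2110 values were computed under alternatives: 2025 kept their call and direction or were uncalled in both, 23 lost the call, 61 gained it and 1 reversed, and 136 of the uncalled ones changed sign. The reversal was H2-DMb2 between cDC1s and cDC2s, at 0.43 when summed with H2-DMb1 (by construction). Genes called in cDC1s for BimS against WT medium numbered 2, and 4 with scaling by total counts and 0 with limma on log2(count + 1), fits that called 15.4% and 7.74% of all genes. For RIPK3 against WT medium in cDC1s they numbered 0, and 1 with RLE factors, 2 with total counts, 3 without filter, 1 with limma on log2 CPM and 2 with limma on the deposited values (16.6%, 20.0%, 11.7%, 16.1% and 19.5% of all genes). For RIPK3 against BimS medium in cDC1s they numbered 2, and 3 without filter (H2-Ab1 added) and 1 with limma on log2(count + 1) (3.63% and 2.07%). In cDC2s, BimS against WT and RIPK3 against WT medium gave 0, and 1 each with total counts, without filter, with limma on log2(count + 1) and on the deposited values (at most 9.25%). RIPK3 against BimS medium in cDC2s gave 1, and 0 with the filter of edgeR (0.354%). The cause was not tested. Total counts shifted the median of all genes in cDC2s by -0.10 in both comparisons with WT medium. With the replicate block the counts were 2, 7 and 5 in cDC1s and 6, 6 and 7 in cDC2s, for the media in the order used above, and the block changed no call between cell types (10) or of interactions (0). Without single samples the counts ranged from 2 to 2, 0 to 4 and 1 to 5 in cDC1s, 0 to 1 for each comparison in cDC2s, 9 to 10 between cell types, and stayed at 0 for interactions. Between cell types 10 were called, and 9 with total counts, 8 with limma on log2(count + 1) and 9 with limma on the deposited values. These 3 fits called 59.8%, 58.5% and 60.7% of all genes. Depth limits H2-Ea and, in cDC2s, Marchf1, which had 20 to 76 counts. Reads shared by H2-DMb1 and H2-DMb2, the sort on MHC class II protein and the 2 samples of cDC2s with RIPK3 medium limit the rest.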
